A study of Mus musculus with 14 samples.

Results

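The genes described here are those that set the entry into S phase through cyclin D: the 3 D cyclins Ccnd1, Ccnd2 and Ccnd3, their kinases Cdk4 and Cdk6, the Cip/Kip inhibitors Cdkn1a, Cdkn1b and Cdkn1c, and the INK4 inhibitors Cdkn2c and Cdkn2d. They were chosen by name, with earlier results of these data known, and all 10 were found among the 24454 genes of the count table. Each of the 10 had at least 1 read in all 14 libraries and passed the filter on low counts, which left 15125 genes for testing.

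The study sorted mesenchymal cells from mouse forelimb buds by FACS and sequenced their poly(A)+ RNA to compare early limb bud mesenchymal progenitors (LMPs) with osteo-chondrogenic progenitors (OCPs) and chondroblasts. All embryos carried the Sox9-IRES-EGFP allele in a mixed Swiss Albino background, and no group was treated or mutant for a gene described here. Each library was made from the cells of many pooled forelimb buds, so that differences between single embryos are not seen. Dead cells and cells with CD31, Ter119, CD45, EpCam, Gr1 or CD11b at their surface were gated out of every population.

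The 3 libraries of S9-JAG1+ LMPs were Sox9-EGFP negative, JAG1 positive and SCA-1 negative. The 3 of S9-Pαhi LMPs were negative for Sox9-EGFP, JAG1 and SCA-1 with high PDGFRα. The 3 of S9+Pαhi OCPs were Sox9-EGFP positive with high PDGFRα. The 2 of S9-SCA-1+ cells were negative for Sox9-EGFP and JAG1 and positive for SCA-1, and carry the replicate numbers 2 and 3. These 4 populations were labelled E10.5. The 3 libraries of S9+PαhiCol2a1+ chondroblasts are labelled E11.5, with the gate of OCPs and the phenotype S9+COL2+, so that stage and population cannot be told apart wherever chondroblasts are compared.

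Totals ran from 20316583 to 29162751 counts per library. Levels are given as CPM, counts scaled by the library's total times its TMM factor, with mean ± SD over libraries. Among the sort markers, Jag1 was at 296 ± 67.9 CPM in S9-JAG1+ LMPs (n = 3), Ly6a, which encodes SCA-1, at 3.23 ± 0.183 CPM in S9-SCA-1+ cells (n = 2) against at most 0.406 in any other library, and Sox9 at 437 ± 7.03 CPM in OCPs and 536 ± 111 CPM in chondroblasts (n = 3 each) against at most 65.5 elsewhere. Pdgfra was at 443 ± 85.0 CPM in S9-Pαhi LMPs, 719 ± 44.8 in OCPs and 864 ± 88.4 in chondroblasts, but also at 247 ± 1.13 in S9-JAG1+ LMPs (n = 3 each), and at 34.4 ± 14.7 in S9-SCA-1+ cells (n = 2). Jag1 was also at 119.5 ± 17.5 CPM in chondroblasts (n = 3), and chondrocyte markers summed to 2192 to 3313 CPM there and 1442 to 2034 in OCPs, against at most 273 elsewhere. In S9-SCA-1+ cells 7 myogenic markers summed to 1501 and 1504 CPM, against at most 11.4 in any other library, and 6 red blood cell genes to 68.3 and 1960 CPM, against at most 53.1 elsewhere. OCP replicate 2 stood furthest from the other libraries of its own population. The chi-square per degree of freedom was 76.3 and 40.0 against OCP replicates 1 and 3, and 7.80 to 22.7 in all other pairs. Some of the results that changed without OCP replicate 2 are given both ways.

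D cyclins bind and activate CDK4 and CDK6 in response to growth signals, and these kinases phosphorylate the retinoblastoma proteins so that E2F factors can switch on S phase genes. INK4 proteins bind CDK4 and CDK6 and block their partnership with D cyclins, whereas Cip/Kip proteins bind complexes of several cyclins and kinases. Cell cycle exit in differentiating cartilage and muscle is known to involve Cip/Kip inhibitors.

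Of the 10 genes, 9 differed among the 5 populations in a joint test (edgeR's quasi-likelihood test, adjusted p of at most 0.1), a test that 74.8% of all genes passed. In each comparison a gene passed with an adjusted p no higher than 0.1 and was called when its log2 fold change also reached 1.2 in size. Cdkn1a had the smallest p of the set and ranked 70 of 15125 genes. Cdkn2d was the exception, with an adjusted p of 0.953. The comparisons of 1 population with the mean of the other 4 draw on the same 14 libraries and are therefore not independent of one another.

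**Figure D1:**
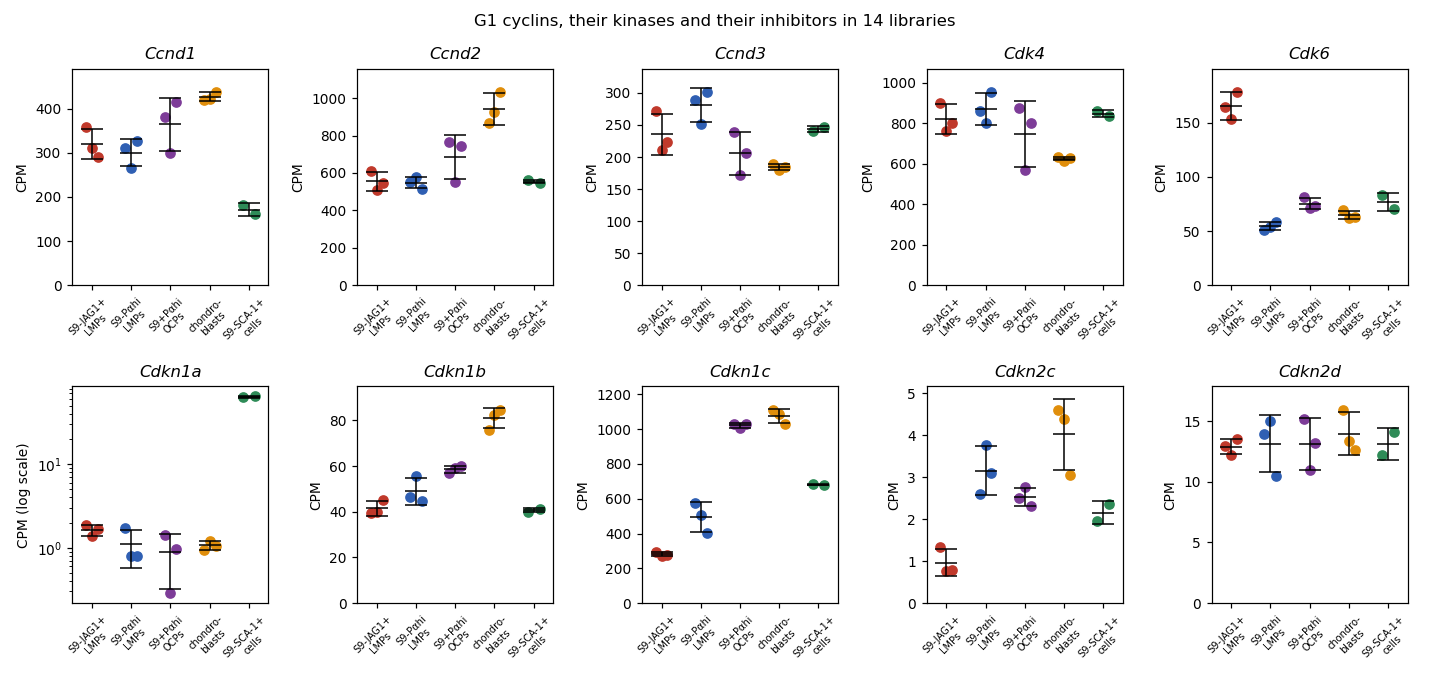
Levels of the 10 genes in CPM (y axis, log scale for Cdkn1a, linear from 0 for the others) in the 5 populations (x axis). Each point is a library, and the bars give mean ± SD. Cdkn1a was at 62.7 and 64.3 CPM in S9-SCA-1+ cells and below 2 CPM in the other 12 libraries, Cdk6 was highest in the 3 libraries of S9-JAG1+ LMPs, and Cdkn1c ran from 274 to 1112 CPM.

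Among the D cyclins, Ccnd1 was lowest in S9-SCA-1+ cells and Ccnd2 highest in chondroblasts. Cyclin D1 is the D cyclin most often tied to mitogen signals. Ccnd1 (chromosome 7, 144929931 to 144939831, minus strand, GRCm38) was at 181 and 162 CPM in the 2 libraries of S9-SCA-1+ cells. It was at 358, 310.5 and 292 CPM in S9-JAG1+ LMPs and at 310, 265 and 326 CPM in S9-Pαhi LMPs. OCPs had 381, 299 and 415 CPM and chondroblasts 419.6, 423 and 438 CPM. Both libraries of S9-SCA-1+ cells lay below all others, and the 3 of chondroblasts above all others. In S9-SCA-1+ cells Ccnd1 fell by 1.03 on the log2 scale against the mean of the other 4 populations (SE 0.12, adjusted p = 1.23e-05), and in chondroblasts it rose by 0.62 (SE 0.09, adjusted p = 5.58e-05). The higher level in OCPs, by 0.33 (SE 0.09, adjusted p = 0.0191), rests on S9-SCA-1+ cells being among the others: without them it was 0.07 (adjusted p = 0.686), and without OCP replicate 3 it was 0.22 (adjusted p = 0.184). In S9-Pαhi LMPs the difference was -0.02 (adjusted p = 0.937), but -0.28 (adjusted p = 0.0803) without S9-SCA-1+ cells among the others. In the order of the means from chondroblasts over OCPs, S9-JAG1+ LMPs and S9-Pαhi LMPs to S9-SCA-1+ cells, the last step passed alone (0.81, SE 0.14, adjusted p = 4.80e-04). Exons of LTO1 on the other strand overlap 23.4% of the Ccnd1 exon length, and the counting is not stated to use strand. LTO1 itself was at 17.9 to 23.8 CPM.

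Cyclin D2 is another partner of CDK4 and CDK6. Ccnd2 (chromosome 6, 127125162 to 127152188, minus strand) was at 865, 927 and 1034 CPM in chondroblasts, above every other library. OCPs had 764, 553 and 744 CPM. The 8 libraries of S9-JAG1+ LMPs, S9-Pαhi LMPs and S9-SCA-1+ cells lay between 509.9 and 611 CPM. The step from OCPs to chondroblasts passed (0.46, SE 0.12, adjusted p = 0.0105), and against the other 4 populations chondroblasts were higher by 0.69 (SE 0.09, adjusted p = 1.55e-05). The step from S9-JAG1+ LMPs to OCPs passed with all libraries (0.30, SE 0.12, adjusted p = 0.0486) and was lost without OCP replicate 1, OCP replicate 3, S9-JAG1+ replicate 2 or S9-JAG1+ replicate 3, with values of 0.22, 0.22, 0.23 and 0.28. The 3 lowest means, 548 to 556 CPM, gave no difference that passed in any pair. Each of these populations also passed as lower than the other 4, by 0.26 to 0.29 (adjusted p = 0.0384 in S9-JAG1+ LMPs, 0.0676 in S9-Pαhi LMPs and 0.0700 in S9-SCA-1+ cells), but these were lost in 2, 10 and 7 of the alternatives. In OCPs the difference from the others was 0.12 (adjusted p = 0.377), and 0.26 (adjusted p = 0.0278) without OCP replicate 2.

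Ccnd3 (chromosome 17, 47505051 to 47599689, plus strand), which encodes the third partner, ran the other way and over a smaller range. Chondroblasts had 189, 180.4 and 184 CPM and S9-Pαhi LMPs 289, 251 and 302 CPM, without overlap. S9-SCA-1+ cells had 241 and 247 CPM, S9-JAG1+ LMPs 272, 211 and 223, and OCPs 239, 172 and 206, with replicate 2 below every chondroblast library. Against the other 4 populations Ccnd3 fell by 0.38 in chondroblasts (SE 0.10, adjusted p = 0.00393) and rose by 0.38 in S9-Pαhi LMPs (SE 0.09, adjusted p = 0.0150). The latter gave 0.32 (adjusted p = 0.108) without S9-Pαhi replicate 3. No step between neighbours in the order of means passed, though S9-Pαhi LMPs were above OCPs by 0.45 (SE 0.12, adjusted p = 0.0237), or by an amount that missed the limit (adjusted p = 0.102) without S9-Pαhi replicate 3. Without OCP replicate 2, chondroblasts fell below OCPs by 0.30 (adjusted p = 0.0378).

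The 3 D cyclins together were at 249 ± 3.40 CPM per kilobase of exon in S9-SCA-1+ cells (n = 2), 285 ± 31.3 in S9-JAG1+ LMPs, 298 ± 15.3 in S9-Pαhi LMPs, 306 ± 48.3 in OCPs and 357 ± 16.8 in chondroblasts (n = 3 each). Per exon length, Ccnd1 made up 17.3 to 19.0% of this sum in S9-SCA-1+ cells and 24.9 to 33.2% in the other populations. Ccnd2 made up 43.6 to 47.6% in chondroblasts. Ccnd3 made up 42.4 to 44.3% in S9-SCA-1+ cells but 21.6 to 24.3% in chondroblasts. With the longest transcript as length, the mean Ccnd3 share was 32.2% in S9-SCA-1+ cells and 15.4% in chondroblasts, so that the order of these 2 populations was kept. In S9-SCA-1+ cells Ccnd3 exceeded Ccnd2 with the one length (43.4 against 38.5%) but not with the other (32.2 against 44.5%).

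Of the kinases, Cdk4 was high in every population, and Cdk6 was highest in S9-JAG1+ LMPs. Per exon length Cdk6 was far below Cdk4, at the 48.0th percentile of tested genes. Both proteins are partners of D cyclins and targets of INK4 inhibitors. Cdk4 (chromosome 10, 127063535 to 127067288, plus strand) was at a mean of 578 CPM per kilobase over all libraries, at the 99.7th percentile of tested genes. It was at 632, 616 and 630.1 CPM in chondroblasts, at 859 and 834 in S9-SCA-1+ cells, at 902, 761 and 803 in S9-JAG1+ LMPs and at 859, 800.4 and 956 in S9-Pαhi LMPs. OCPs had 875, 567 and 800.1 CPM, with replicate 2 below every chondroblast library. Against the other 4 populations Cdk4 fell by 0.39 in chondroblasts (SE 0.11, adjusted p = 0.00569) and did not pass elsewhere with all libraries. In S9-Pαhi LMPs it passed as higher without OCP replicate 1 (0.24, adjusted p = 0.0876) or OCP replicate 2 (0.18, adjusted p = 0.0623). The difference between chondroblasts and OCPs did not pass with all libraries (-0.26, SE 0.13, adjusted p = 0.158), but without OCP replicate 2 the difference was -0.45 (adjusted p = 0.00140). Tspan31 exons on the other strand overlap 19.7% of the Cdk4 exon length, and Tspan31 was at 71.8 to 98.4 CPM.

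Cdk6 (chromosome 5, 3341004 to 3531008, plus strand) was at 164, 153 and 179 CPM in S9-JAG1+ LMPs. Each of the other 11 libraries lay between 51.2 and 82.9 CPM. OCPs had 81.6, 71.6 and 73.0 CPM, S9-SCA-1+ cells 82.9 and 70.8, chondroblasts 69.5, 62.2 and 62.9, and S9-Pαhi LMPs 51.2, 53.4 and 58.3, the lowest. Cdk6 was higher by 1.30 in S9-JAG1+ LMPs than in the other 4 populations (SE 0.07, adjusted p = 3.89e-09) and fell by 0.71 in S9-Pαhi LMPs (SE 0.08, adjusted p = 3.25e-05). The largest pairwise difference was between these LMPs, 1.61 lower in S9-Pαhi than in S9-JAG1+ LMPs (SE 0.09, adjusted p = 5.43e-08). Of the 10 pairs of populations 9 passed, all but S9-SCA-1+ cells against OCPs (0.03, SE 0.10, adjusted p = 0.853). The step down from OCPs to chondroblasts (-0.22, SE 0.09, adjusted p = 0.0986) was lost in 11 of 22 alternatives, and chondroblasts were above S9-Pαhi LMPs by 0.26 (SE 0.09, adjusted p = 0.0343), which was lost without chondroblast replicate 1, chondroblast replicate 3 or S9-Pαhi replicate 1. Chondroblasts against S9-SCA-1+ cells (-0.24, adjusted p = 0.0548) was lost with unscaled library totals and without chondroblast replicate 2 or S9-SCA-1+ replicate 2. In terms of exon length, Cdk6 made up 2.08 to 2.53% of the sum of both kinases in S9-JAG1+ LMPs and 0.692 to 1.45% elsewhere. With the longest transcript as length, these shares were 3.14 to 3.81% and 1.05 to 2.20%. In sorted cells measured in bulk, fewer cells with the RNA and less RNA per cell cannot be told apart.

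Cdkn1a, which encodes p21, a classical target of p53, spanned the widest range of the 10 genes, with a 71.0-fold ratio between its highest and lowest population means. It was high in S9-SCA-1+ cells. It has 2 start sites in RefSeq, and so do Ccnd3 and Cdkn2c among the promoters found. The upstream promoter of Cdkn1a was the only one of these with a p53 match. Both Cdkn1a promoters are set beside that of Cdkn1b, which encodes the related p27. Each sequence is the 250 bases before a RefSeq start site on GRCm38.p6, plus strand: the upstream start of Cdkn1a (chr17:29090729-29090978), its downstream start (chr17:29093519-29093768) and the start of Cdkn1b (chr6:134920151-134920400). Capitals mark motif matches, a p53 consensus site with 1 mismatch in the first and the GC box GGGCGGG in the second.
Cdkn1a upstream start: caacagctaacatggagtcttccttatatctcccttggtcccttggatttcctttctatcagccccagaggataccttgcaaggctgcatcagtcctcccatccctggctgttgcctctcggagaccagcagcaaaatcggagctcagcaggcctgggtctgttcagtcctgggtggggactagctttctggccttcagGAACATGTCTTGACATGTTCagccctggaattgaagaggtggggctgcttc
Cdkn1a downstream start: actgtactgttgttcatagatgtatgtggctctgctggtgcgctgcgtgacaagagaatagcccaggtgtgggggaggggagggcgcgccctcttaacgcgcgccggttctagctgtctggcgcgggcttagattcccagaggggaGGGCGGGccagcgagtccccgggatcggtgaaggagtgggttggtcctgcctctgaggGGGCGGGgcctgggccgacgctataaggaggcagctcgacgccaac
Cdkn1b: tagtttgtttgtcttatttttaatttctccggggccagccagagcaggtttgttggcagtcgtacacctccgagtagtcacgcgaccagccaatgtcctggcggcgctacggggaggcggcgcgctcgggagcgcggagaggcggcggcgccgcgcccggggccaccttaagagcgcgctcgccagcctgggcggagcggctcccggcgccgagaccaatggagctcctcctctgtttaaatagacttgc
Motifs were searched on both strands: the GC box GGGCGGG, the E-box CAGCTG, the E2F motifs TTTCCCGC and TTTGGCGC, and the p53 consensus of 20 letters with at most 1 mismatch. The p53 match lay 51 bases before the upstream start of Cdkn1a and had 1 mismatch to the consensus. The C and G letters of the p53 consensus had to match, so that the mismatch was allowed only at its other letters. Under this rule 19 of 32841 promoters of this length held a match (0.0579%). The limit of 1 mismatch was chosen after the sequences were seen, and the Cdkn1a match depends on it. The percentage is therefore a description and cannot test how unusual the match is. GC boxes lay 104 and 46 bases before the downstream start and were in 23.4% of promoters. The Cdkn1b window held none of these motifs. Promoters were found for 7 of the 10 genes, none with the E-box CAGCTG (13% of all promoters) or either E2F motif (0.895% and 0.417%). Other forms of the E-box, such as the CACGTG in the Cdk4 and Cdk6 windows, were not searched. A match is a run of letters, and no binding was measured.

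In S9-SCA-1+ cells Cdkn1a (chromosome 17, 29090979 to 29100722, plus strand) had 1793 and 1805 counts, or 62.7 and 64.3 CPM. The other 12 libraries had 6 to 44 counts. S9-JAG1+ LMPs had 1.88, 1.38 and 1.67 CPM, S9-Pαhi LMPs 1.71, 0.790 and 0.797, OCPs 1.42, 0.285 and 0.977, and chondroblasts 0.942, 1.198 and 1.06. The mean in S9-SCA-1+ cells was 38.6-fold that of S9-JAG1+ LMPs, the next highest. Against the other 4 populations the difference was 5.78 (SE 0.20, adjusted p = 3.56e-11), and it was 5.68 to 5.98 over the 21 alternatives tried. Myogenic and red blood markers were both higher in these libraries. The red blood sum was 68.3 CPM in one and 1960 in the other where Cdkn1a was 62.7 and 64.3 CPM, and the part of either marker group in the Cdkn1a level was not tested. Cdkn1a passed as lower in the 4 other populations too, because the mean of the others then holds S9-SCA-1+ cells. Without those libraries none passed, with differences of -0.07 in S9-Pαhi LMPs (adjusted p = 0.915), -0.46 in OCPs (adjusted p = 0.481), -0.16 in chondroblasts (adjusted p = 0.737) and 0.69 in S9-JAG1+ LMPs (adjusted p = 0.113). Among pairs without S9-SCA-1+ cells, OCPs were below S9-JAG1+ LMPs by 0.84 (SE 0.37, adjusted p = 0.0888), which was lost in 11 of 22 alternatives where the difference was -0.47 without OCP replicate 2.

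Of 18 other tested p53 targets and regulators, 6 passed as higher and 3 as lower in S9-SCA-1+ cells, with a median of 0.01 against -0.01 over all genes, of which 46.4% passed. Plk2, a stress-responsive polo-like kinase, was higher by 2.18 (SE 0.21, adjusted p = 2.07e-06) and Aen, an apoptosis-enhancing nuclease, by 0.71 (SE 0.09, adjusted p = 2.72e-05). Pmaip1, which encodes the pro-apoptotic Noxa, fell by 2.39 (SE 0.30, adjusted p = 2.66e-05). The other genes that passed were Phlda3 (0.69), Bax (0.43), Trp53 (0.28) and Sesn2 (0.27) as higher, and Trp53inp1 (-0.60) and Perp (-1.77) as lower. The widely used p53 targets Mdm2 and Ccng1 did not pass, at -0.18 (adjusted p = 0.380) and 0.01 (adjusted p = 0.957). These 2 were named after their values were seen, and the part of p53 in the Cdkn1a level was not tested. The same list had 7 higher and 8 lower in S9-JAG1+ LMPs, 1 and 2 in S9-Pαhi LMPs, 3 and 4 in OCPs and 7 and 6 in chondroblasts, where 49.9%, 15.6%, 28.5% and 65.0% of all genes passed.

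Cdkn1b (chromosome 6, 134920401 to 134925525, plus strand) rose from the LMPs to chondroblasts. It was at 40.0 and 41.2 CPM in S9-SCA-1+ cells, 39.4, 40.1 and 45.3 in S9-JAG1+ LMPs and 46.7, 55.7 and 44.6 in S9-Pαhi LMPs. OCPs had 56.99, 58.96 and 59.97 CPM and chondroblasts 76.0, 82.4 and 84.7. The 3 OCP libraries lay above all LMP libraries, and the chondroblast libraries above those. Chondroblasts were higher than the other 4 populations by 0.79 (SE 0.07, adjusted p = 5.15e-07) and than OCPs by 0.47 (SE 0.09, adjusted p = 0.00219). S9-SCA-1+ cells and S9-JAG1+ LMPs were lower than the other populations, by 0.46 (adjusted p = 0.00102) and 0.42 (adjusted p = 5.55e-04). The steps between S9-JAG1+ and S9-Pαhi LMPs (0.24, adjusted p = 0.0846) and from S9-Pαhi LMPs to OCPs (0.26, adjusted p = 0.0808) passed but were lost in 10 and 13 of 22 alternatives. The higher level in OCPs than in the other populations (0.20, SE 0.07, adjusted p = 0.0594) was lost in 5 alternatives, among them those without OCP replicate 2 (adjusted p = 0.121), OCP replicate 3 (0.224), chondroblast replicate 2 (0.1001) or S9-JAG1+ replicate 2 (0.105). Without S9-SCA-1+ cells among the others it was 0.09 (adjusted p = 0.540).

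Cdkn1c encodes p57, an imprinted inhibitor with known roles in cartilage and muscle differentiation. Cdkn1c (chromosome 7, 143458339 to 143461059, minus strand) was at 1112, 1086 and 1029 CPM in chondroblasts and 1030, 1006 and 1031 in OCPs. The S9-SCA-1+ cells had 684 and 678 CPM, S9-Pαhi LMPs 576, 509 and 406, and S9-JAG1+ LMPs 293, 274 and 279. Every library of OCPs and chondroblasts lay above every other library, and those of S9-JAG1+ LMPs below. S9-JAG1+ LMPs were lower than the other populations by 1.47 (SE 0.09, adjusted p = 1.68e-08), OCPs higher by 0.85 (SE 0.08, adjusted p = 2.64e-06) and chondroblasts higher by 0.95 (SE 0.08, adjusted p = 1.87e-07). The steps of 0.82 from S9-JAG1+ to S9-Pαhi LMPs (SE 0.10, adjusted p = 4.31e-05) and of 1.04 from there to OCPs (SE 0.10, adjusted p = 1.59e-05) passed. S9-SCA-1+ cells lay between these, above S9-Pαhi LMPs by 0.45 (adjusted p = 0.00745) and below OCPs by 0.59 (adjusted p = 0.00106). The difference between chondroblasts and OCPs did not pass (0.07, SE 0.10, adjusted p = 0.623). Exons on the other strand, of Gm44732, overlap 30.7% of the Cdkn1c exon length; that gene is not analysed here.

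Per exon length, Cdkn1c had the second highest mean over all libraries of the 10 genes, 368 CPM per kilobase, at the 99.5th percentile. In chondroblasts Cdkn1c was above Cdk4, at 554 against 465 CPM per kilobase. With the longest transcript as length, Cdkn1c was above Cdk4 in OCPs too (538 against 364). It made up 82.4 to 84.3% of the summed level of the 5 inhibitors in S9-JAG1+ LMPs and 93.4 to 93.8% in OCPs. Cdkn1a held 7.51 to 7.71% in S9-SCA-1+ cells against no more than 0.518% in any other library. The summed Cip/Kip level was 163 ± 4.88 CPM per kilobase in S9-JAG1+ LMPs, 277 ± 45.1 in S9-Pαhi LMPs, 551 ± 7.60 in OCPs and 588 ± 20.03 in chondroblasts (n = 3 each), and 399 ± 1.45 in S9-SCA-1+ cells (n = 2).

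**Figure D2:**
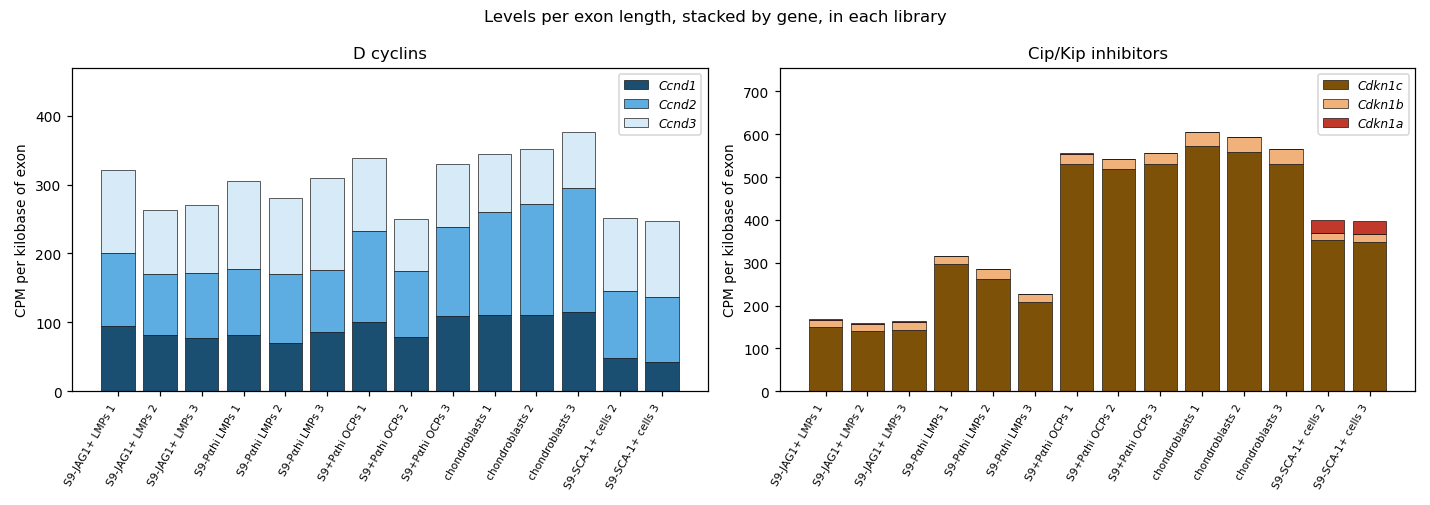
Summed levels per kilobase of exon (y axis, linear from 0) of the 3 D cyclins (left) and 3 Cip/Kip inhibitors (right) in each library (x axis, with replicate number), with a colour for each gene. Cdkn1c forms most of each inhibitor bar, which runs from 158 CPM per kilobase in S9-JAG1+ LMPs to 605 in chondroblasts, and the Cdkn1a share shows in S9-SCA-1+ cells.

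The INK4 inhibitor Cdkn2c, which encodes p18, was low everywhere. Cdkn2c (chromosome 4, 109660876 to 109666756, minus strand) had 18 to 137 counts. It was at 1.33, 0.754 and 0.793 CPM in S9-JAG1+ LMPs, 2.60, 3.76 and 3.09 in S9-Pαhi LMPs, 2.52, 2.76 and 2.32 in OCPs, 4.61, 4.38 and 3.06 in chondroblasts and 1.96 and 2.35 in S9-SCA-1+ cells. The 3 S9-JAG1+ libraries lay below all others. They were lower by 1.59 (SE 0.23, adjusted p = 7.16e-05), and chondroblasts were higher by 1.00 (SE 0.18, adjusted p = 3.04e-04). S9-Pαhi LMPs were higher than S9-JAG1+ LMPs by 1.72 (SE 0.26, adjusted p = 2.94e-04). Against the other 4 populations they were higher by 0.56 (SE 0.19, adjusted p = 0.0740), which was lost without S9-Pαhi replicate 2 (0.41), S9-Pαhi replicate 3 (0.57) or S9-SCA-1+ replicate 2 (0.53). The step of 0.67 from OCPs to chondroblasts (SE 0.24, adjusted p = 0.0490) was lost without OCP replicate 3, chondroblast replicate 1 or chondroblast replicate 2, with values of 0.59, 0.55 and 0.59.

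Cdkn2d, which encodes p19, was the most even of the 10. Cdkn2d (chromosome 9, 21288459 to 21291421, minus strand) had means of 12.9 to 14.0 CPM, with 10.51 to 15.9 over all libraries and overlap between all populations. The largest of the 10 pairwise differences was 0.12, with standard errors of 0.15 to 0.17. Of the INK4 genes outside the set, Cdkn2a had at most 4 counts in any library and was not tested. Cdkn2b had at most 13 counts and was tested. Against the other 4 populations it passed as higher in chondroblasts (2.65, SE 0.63, adjusted p = 0.00247) and S9-SCA-1+ cells (2.18, SE 0.74, adjusted p = 0.0321). It passed as lower in S9-JAG1+ LMPs (-2.64, SE 1.22, adjusted p = 0.0981) and did not pass in S9-Pαhi LMPs or OCPs.

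Counted by population, S9-SCA-1+ cells had 1 of the 10 genes passing as higher, Cdkn1a, which was also called, and 3 as lower (Ccnd1, Ccnd2 and Cdkn1b). Of all genes 46.4% passed there, 23.5% as higher and 22.8% as lower, and 11.3% were called. S9-JAG1+ LMPs had 1 higher, Cdk6, and 5 lower, and Cdk6, Cdkn1c and Cdkn2c were called. Among the 5 lower was Cdkn1a, which turned to 0.69 without S9-SCA-1+ cells among the others. Of all genes 49.9% passed, 24.2% as higher and 25.7% as lower, and 10.6% were called.

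S9-Pαhi LMPs had 2 higher (Ccnd3 and Cdkn2c) and 4 lower (Ccnd2, Cdk6, Cdkn1a and Cdkn1c), where 15.6% of all genes passed, 8.03% as higher and 7.60% as lower. OCPs had 3 higher (Ccnd1, Cdkn1b and Cdkn1c) and 1 lower, Cdkn1a, where 28.5% passed, 16.6% as higher and 11.9% as lower. Chondroblasts had 5 higher (Ccnd1, Ccnd2, Cdkn1b, Cdkn1c and Cdkn2c) and 4 lower (Ccnd3, Cdk4, Cdk6 and Cdkn1a), where 65.0% passed, 35.7% as higher and 29.4% as lower. In these 3 populations Cdkn1a was the called gene, and 3.84%, 5.01% and 12.7% of all genes were called. These calls of Cdkn1a rest on S9-SCA-1+ cells being among the others, and without those libraries it passed in none of the 3.

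Along the order of the study, 4 genes passed between S9-JAG1+ and S9-Pαhi LMPs, with Cdk6 and Cdkn2c called, where 28.1% of all genes passed and 7.00% were called. Between S9-Pαhi LMPs and OCPs 5 passed and 0 were called, against 20.1% and 4.84% of all genes. Between OCPs and chondroblasts 4 passed and 0 were called, against 34.8% and 7.77%.

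**Figure D3:**
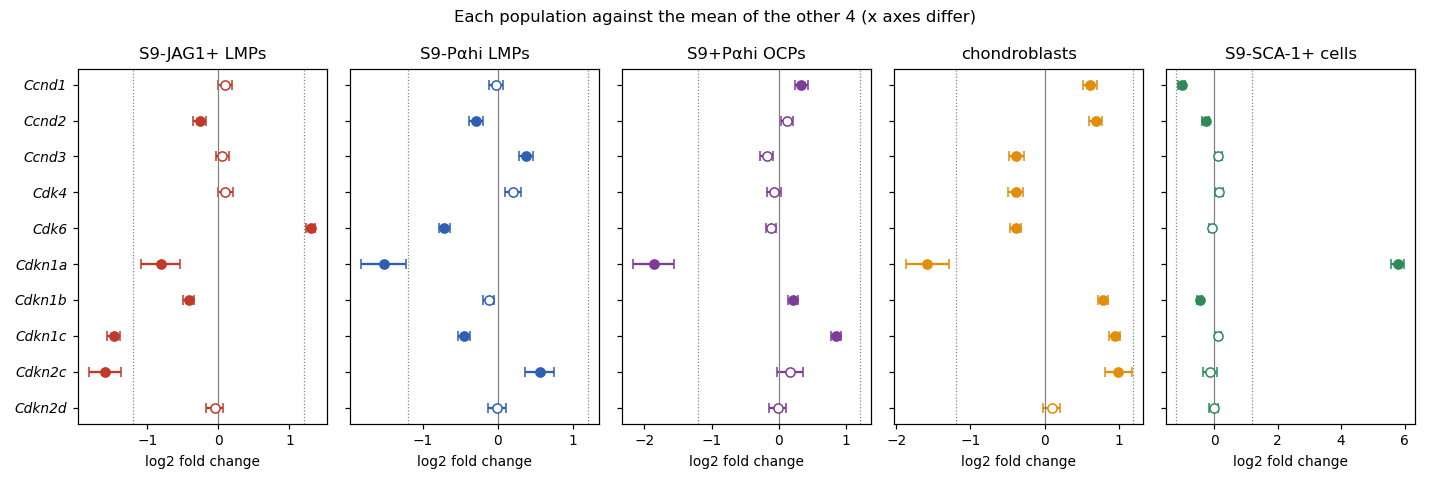
Log2 fold change ± SE (x axis, with a different range in each panel) of the 10 genes (y axis) in each population against the mean of the other 4. Filled points passed, open points did not, and dotted lines mark 1.2 in either direction. Cdkn1a lies at 5.78 in S9-SCA-1+ cells, and Cdk6 and Cdkn1c lie at 1.30 and -1.47 in S9-JAG1+ LMPs.

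The other genes of the G1/S transition passed most often as higher in S9-JAG1+ LMPs and as lower in chondroblasts. Of 35 genes, among them E-type cyclins, E2F factors and retinoblastoma proteins, 34 were tested. In S9-JAG1+ LMPs 20 passed as higher and 5 as lower, with a median of 0.19 against -0.01 over all genes, of which 24.2% and 25.7% passed in these directions. Mycn, a MYC family factor of proliferating progenitors, was higher by 1.42 (SE 0.12, adjusted p = 4.46e-07), E2f5 by 0.62 (SE 0.07, adjusted p = 8.25e-06) and Mybl2, a MYB family factor of the cell cycle, by 0.60 (SE 0.06, adjusted p = 4.70e-06). In chondroblasts 5 passed as higher and 24 as lower (median -0.27 against 0.05), and of all genes 35.7% and 29.4%. Mycn fell by 1.72 (SE 0.14, adjusted p = 3.14e-07), Ccne1, which encodes cyclin E1, by 1.29 (SE 0.11, adjusted p = 2.30e-07) and Mybl2 by 0.82 (SE 0.07, adjusted p = 3.45e-07).

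In S9-SCA-1+ cells 15 passed as higher and 4 as lower (median 0.14 against -0.01), and of all genes 23.5% and 22.8%. Myc rose by 3.19 (SE 0.18, adjusted p = 5.54e-09), Ccne1 by 1.04 (SE 0.10, adjusted p = 2.41e-06) and E2f2 by 1.02 (SE 0.09, adjusted p = 5.91e-07). S9-Pαhi LMPs had 4 higher and 2 lower, where 8.03% and 7.60% of all genes passed in these directions. OCPs had 1 higher and 6 lower, against 16.6% and 11.9% of all genes. Myc was at 145 and 157 CPM in S9-SCA-1+ cells, against 9.35 to 30.8 in the other 12 libraries.

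S phase and mitosis genes showed the same populations at either end. Of 20 genes, 17 passed as higher and 0 as lower in S9-JAG1+ LMPs (median 0.34 against -0.01), with Mcm2, a subunit of the replicative helicase, at 0.55 (SE 0.07, adjusted p = 1.96e-05), Rrm2, of ribonucleotide reductase, at 0.54 (SE 0.07, adjusted p = 3.87e-05) and Mcm3 at 0.52 (SE 0.08, adjusted p = 9.59e-05). In chondroblasts 0 passed as higher and 19 as lower (median -0.51 against 0.05), with Rrm2 lower by 1.10 (SE 0.08, adjusted p = 7.23e-08), Mcm7 by 0.81 (SE 0.08, adjusted p = 2.59e-06) and Pcna, the replication clamp, by 0.82 (SE 0.09, adjusted p = 4.11e-06). Mki67, a widely used proliferation marker, was the gene that did not pass in chondroblasts (-0.0094, adjusted p = 0.962). S9-SCA-1+ cells had 7 higher and 1 lower, where 23.5% and 22.8% of all genes passed in these directions. S9-Pαhi LMPs had 4 higher and 0 lower, against 8.03% and 7.60% of all genes. OCPs had 0 higher and 1 lower, against 16.6% and 11.9%. The shares of all genes were 24.2% and 25.7% in S9-JAG1+ LMPs and 35.7% and 29.4% in chondroblasts.

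**Figure D4:**
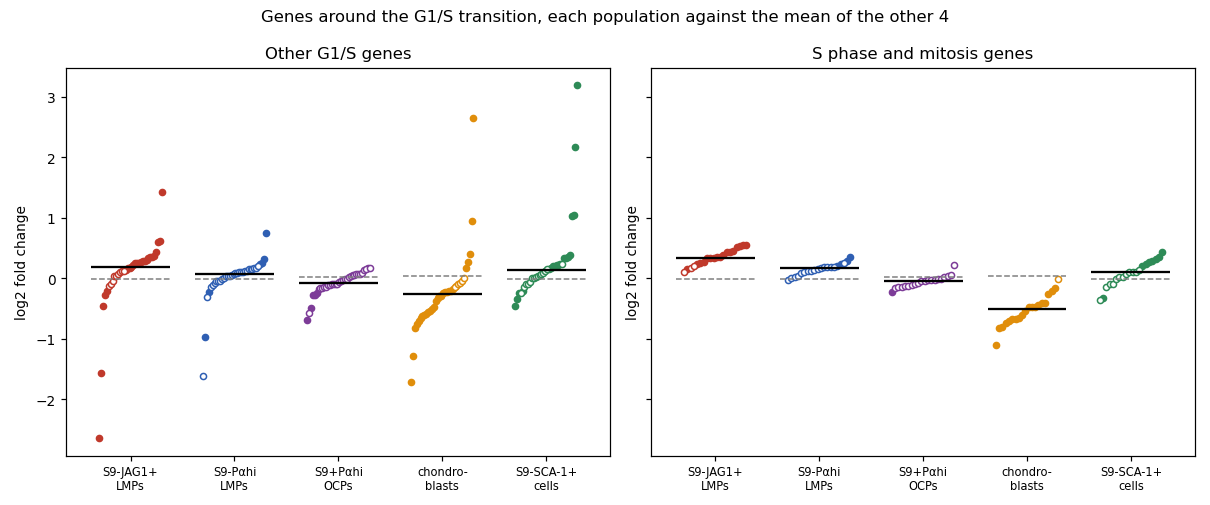
Log2 fold change against the mean of the other 4 populations (y axis) for 34 tested G1/S genes (left) and 20 S phase and mitosis genes (right) in each population (x axis). Each point is a gene, filled where it passed, with the list median as a solid line and the median of all genes as a dashed line. The median is 0.34 in S9-JAG1+ LMPs and -0.51 in chondroblasts for the right-hand list.

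Of 14 genes that respond to tissue dissociation, 8 passed as higher and 0 as lower in chondroblasts, where 35.7% and 29.4% of all genes did (median 0.77 against 0.05). In OCPs the counts were 5 and 0, against 16.6% and 11.9% of all genes (median 0.49 against 0.02). They were 0 and 1 in S9-Pαhi LMPs (median -0.03 against -0.01), 0 and 4 in S9-JAG1+ LMPs (-0.38 against -0.01) and 3 and 7 in S9-SCA-1+ cells (-0.34 against -0.01), where 15.6%, 49.9% and 46.4% of all genes passed. In chondroblasts the immediate early gene Fos was higher by 1.51 (SE 0.32, adjusted p = 0.00107), Nr4a1 by 0.96 (SE 0.20, adjusted p = 0.00108) and Socs3 by 0.48 (SE 0.13, adjusted p = 0.00524). The part of this response in the levels of the 10 genes was not tested.

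Markers of other cell types were low in sum but did not stay level between populations. The 5 endothelial genes summed to 11.0 to 15.1 CPM in S9-SCA-1+ cells and 2.46 to 10.46 elsewhere. In S9-SCA-1+ cells Kdr, the VEGF receptor, was higher by 3.12 (adjusted p = 6.05e-06), at 8.51 ± 3.43 CPM (n = 2). Tek was higher by 0.89 (adjusted p = 0.0108), and Emcn (0.38), Pecam1 (-0.66) and Cdh5 (-0.28) did not pass. The 5 ectoderm genes summed to 17.6 to 18.9 CPM in chondroblasts, 12.3 to 13.9 in OCPs and 4.24 to 11.3 elsewhere. In chondroblasts the keratin gene Krt18 was higher by 1.84 (adjusted p = 2.52e-06), at 10.1 ± 1.01 CPM, and Epcam by 1.34 (adjusted p = 3.36e-06), at 5.84 ± 0.135 CPM (n = 3 each). The only other ectoderm gene tested, Krt8, went the other way there and did not pass (-0.60, adjusted p = 0.184). The 4 neural crest and glia genes summed to 10.9 to 11.4 CPM in chondroblasts, 7.34 to 17.2 in OCPs and 3.73 to 6.09 elsewhere. Sox10, a neural crest factor, was higher by 4.18 in OCPs (adjusted p = 4.96e-06) and by 4.06 in chondroblasts (adjusted p = 1.34e-06), at 2.98 ± 1.07 and 2.78 ± 0.365 CPM (n = 3 each), with at most 5 counts in any library of the other populations. The 4 leukocyte genes summed to 2.49 to 8.76 CPM, with overlap between populations. Kdr, Krt18, Epcam and Sox10 were named after their values were seen, and the part of such cells in the levels of the 10 genes was not tested.

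As a description, the genes whose log2 level over the 14 libraries was most like that of Cdk6 were Mtus1 (r = 0.95), Lamb1 (0.94) and Myh9 (0.93), those for Cdkn1c Samd10 (0.99), Synrg (0.99) and Cadm4 (0.98), those for Cdkn2c Msrb3, Kcnn3 and Snx21 (0.95 each), and those for Cdkn1a Entpd8 (0.97), A2ml1 (0.96) and Upp1 (0.96). Libraries of a population are alike, so that the 14 points are not independent, and by Spearman's rho Samd10 and Kcnn3 alone of these stayed among the 3 highest.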

How the data were processed

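The data are whole-number counts of reads per gene, deposited by the authors for 14 libraries without normalization. Per the authors' methods, single-end reads were aligned to mm10 with STAR, 1 position was kept for a read that fits several, and reads starting in RefSeq exons were counted with QuasR. Of 24454 Entrez identifiers 24374 were matched to symbols, and the other 80 held 0.358% of counts. Positions, promoters and symbols came from RefSeq GRCm38.p6, and exon overlaps from GENCODE annotation.

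Counts were tested in R 4.3.3 with edgeR 4.0.16 (TMM, filterByExpr by population, a quasi-likelihood F test over all libraries, Benjamini-Hochberg adjustment over 15125 genes). Standard errors are the log2 fold change divided by the square root of F. P-values measure the spread between libraries of pooled buds, which may be technical in part. CPM per kilobase used the exon lengths in the authors' table in place of the planned union of exons. CPM used totals times TMM factors, and log2 CPM a prior count of 2. The procedure was tested on simulated data. Deviations from the population means were correlated between libraries of different populations. The median was -0.0047 for same-numbered libraries (largest 0.31, over 0.1 in 4 of 26 pairs) and -0.0030 for others (largest 0.41, over 0.1 in 6 of 52). Chondroblasts, of another stage, were in both sets, so these medians cannot exclude pools shared between the other populations. Numbers were not used as pairs in the main fit. Some libraries did deviate together, such as OCP replicate 1 and S9-Pαhi replicate 3 (0.41), and the main fit treats all libraries as independent. No 2 libraries of a population agreed within sampling noise.

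All 10 genes are described. Of each list, the 3 genes with the smallest p are named where a comparison is discussed, and for each gene called in 1 population against the other 4, the 3 with the highest Pearson correlation. The genes and lists were chosen with earlier results of these data known. The mismatch allowed in the p53 site was chosen after the sequences were seen. Alternatives were unscaled library totals or size factors from DESeq2 1.42.0, looser and stricter count filters, edgeR's likelihood ratio and DESeq2's Wald tests, a replicate block, a fit without S9-SCA-1+ cells, each library left out in turn and, chosen after seeing the data, the mean of 3 other populations without S9-SCA-1+ cells. Figures were drawn with matplotlib.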

Additional observations from a re-analysis of the deposited data

How the results depend on the processing

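Of 80 combinations of gene and comparison, 25 passed under no setting. For the other 55, 1092 repeats kept direction and side of the threshold, 84 lost it, 22 gained it and 7 changed sign. With the mean of the other 3 populations, an alternative chosen after seeing the data, 1 of the 10 genes passed in OCPs in place of 4, and Cdkn1a in S9-JAG1+ LMPs turned to 0.69. In the fit without S9-SCA-1+ libraries 3 genes passed between S9-Pαhi LMPs and OCPs in place of 5. Ccnd1 in S9-Pαhi LMPs, at -0.02 in the fit of all libraries, ran from -0.0796 to 0.0642 without 1 library, with 0.0317, 0.0005, 0.0094, 0.0044 and 0.0048 also above 0. The cause of these changes was not tested.

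Leaving out 1 library at a time gave 3 to 4 genes passing in S9-SCA-1+ cells, 4 to 6 in S9-JAG1+ LMPs, 3 to 7 in S9-Pαhi LMPs, 2 to 5 in OCPs and 9 in chondroblasts, 3 to 5 between the LMPs, 2 to 5 between S9-Pαhi LMPs and OCPs and 2 to 6 between OCPs and chondroblasts. The lowest counts came without S9-Pαhi replicate 3 (3 in place of 6 in S9-Pαhi LMPs, and 2 in place of 5 against OCPs), OCP replicate 3 (2 in place of 4 in OCPs) and chondroblast replicate 2 (2 in place of 4 against OCPs), and leaving out any of 9 libraries besides S9-Pαhi replicate 3 gave 3 between S9-Pαhi LMPs and OCPs. Over all genes, called counts were 1471 to 1739, 1451 to 1652, 483 to 656, 670 to 903, 1694 to 2069, 934 to 1129, 556 to 1015 and 961 to 1237 in the same order. With the replicate block, which the main fit did not use, 4, 6, 6, 5, 9, 5, 5 and 3 genes passed. Low counts limit Cdkn2c and, outside S9-SCA-1+ cells, Cdkn1a.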
